A study of Homo sapiens with 15 samples.

Results

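The genes described here are 5 ligands of the transforming growth factor beta (TGF-beta) family, TGFB1, TGFB2, INHBA, BMP2 and BMP4, and 4 genes that SMAD proteins are known to switch on, SMAD7, ID1, ID3 and TGFBI. They were taken by gene name from the 60675 genes of the deposited count table, and 9 of 9 passed the filter on low counts that left 17780 genes for testing. BMP4 passed through 3 of the 4 groups, since it had 2 counts in all in KDAC4 H976Y. The RNA came from HT1080, a human fibrosarcoma cell line grown in culture. KDAC4 and KDAC7 (genes HDAC4 and HDAC7) are class IIa lysine deacetylases. In 3 groups the genotype was an amino acid change in HDAC4 or HDAC7 and the cells had no treatment: KDAC4 H803A with 3 count libraries, KDAC4 H976Y with 4 and KDAC7 H709A with 4. The variants are described as enhanced or inactivated, and the labels do not say which is which. H803A and H709A are read here as the inactive forms and H976Y, which gives the class IIa site the tyrosine of the more active deacetylases, as the enhanced one. The fourth group, called TMP195 below, was wild-type HT1080 given the class IIa inhibitor TMP195 at 1 µM for 2 days, with 3 libraries. Untreated wild-type cells were not analysed here, so a comparison with TMP195 differs in genotype and in drug, and these cannot be told apart. The labels name neither clones nor separate cultures, so each p-value reflects only how these libraries spread, and that spread may be technical.

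Ligands of this family are secreted dimers that bind pairs of serine/threonine kinase receptors. TGF-beta and activin receptors phosphorylate SMAD2 and SMAD3, receptors for bone morphogenetic proteins (BMPs) phosphorylate SMAD1, SMAD5 and SMAD9, and both sets enter the nucleus with SMAD4 to regulate genes. SMAD6 and SMAD7 are inhibitory SMADs that are themselves induced and feed back on the receptors. Class IIa deacetylases are known as corepressors that are recruited by MEF2 transcription factors. In fibroblast-like cells TGF-beta is best known for raising extracellular matrix genes.

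Levels are given as CPM, a gene's count scaled to a common library size with edgeR's TMM factors, and 1 CPM stood for 4.86 to 23.9 counts in the 14 libraries, whose totals ran from 6151383 to 24297487. Of 10 mesenchymal markers 9 had a median of at least 1 CPM and summed to 3879 to 9495 CPM. The summed level of 7 epithelial markers was 1.84 to 12.9 CPM, of 6 endothelial markers 1.65 to 5.73 and of 6 blood markers 0.0633 to 4.12, with PTPRC and HBB at 0 in every library. Mitochondrial ribosomal RNA made up 16.1% to 31.5% of counts in KDAC4 H976Y, and in the other groups no more than 0.345%, which cannot be told apart from the group in any comparison with KDAC4 H976Y. Libraries of a group also differed in how far GC-rich genes exceeded GC-poor genes (log2). That difference was -1.06 in the library labelled KDAC4 H803A replicate 1 but 1.33 and 1.22 in replicates 2 and 3, and 1.14 in the library labelled KDAC7 H709A replicate 1 but -0.45 to -1.08 in its other 3. It was -0.52 to -0.26 in KDAC4 H976Y and 0.37 to 0.53 in TMP195. The library labelled KDAC4 H803A replicate 1 differed from KDAC7 H709A replicate 4 by 2.15 times Poisson counting noise and from its own group by 227 and 264 times. The library labelled KDAC7 H709A replicate 1 differed from KDAC4 H803A replicate 3 by 35.1 times and from its own group by 167 to 300.4 times. These are called the 2 doubted libraries below, and counts are also given without them.

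RefSeq promoter sequences on GRCh38.p14 were at hand for 8 of 9 genes, all but BMP2. The 250 bases before the transcription start are shown for INHBA, TGFBI, ID1 and ID3, which are among the genes called between groups. They are also shown for SMAD7, a textbook direct SMAD target, all 5′ to 3′ on the gene's own strand. Capitals mark matches to the motifs searched on both strands: the SMAD box CAGAC, the SMAD palindrome GTCTAGAC, the GC-rich SMAD element GGCGCC, the AP-1 site TGANTCA, the cyclic AMP response element TGACGTCA, the TATA box TATAAA and the MEF2 site.
ID1 (chr20:31605039-31605288, plus strand): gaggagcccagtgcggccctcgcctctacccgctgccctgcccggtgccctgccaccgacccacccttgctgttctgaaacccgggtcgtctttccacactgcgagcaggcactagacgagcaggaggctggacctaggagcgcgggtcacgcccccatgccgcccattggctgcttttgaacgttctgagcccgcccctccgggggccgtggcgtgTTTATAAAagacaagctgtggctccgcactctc
ID3 (chr1:23559502-23559751, minus strand): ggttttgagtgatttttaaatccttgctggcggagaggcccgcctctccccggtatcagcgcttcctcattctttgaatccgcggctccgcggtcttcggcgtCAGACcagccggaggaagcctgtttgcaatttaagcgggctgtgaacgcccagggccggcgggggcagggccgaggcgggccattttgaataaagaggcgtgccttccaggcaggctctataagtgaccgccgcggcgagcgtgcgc
INHBA (chr7:41703091-41703340, minus strand): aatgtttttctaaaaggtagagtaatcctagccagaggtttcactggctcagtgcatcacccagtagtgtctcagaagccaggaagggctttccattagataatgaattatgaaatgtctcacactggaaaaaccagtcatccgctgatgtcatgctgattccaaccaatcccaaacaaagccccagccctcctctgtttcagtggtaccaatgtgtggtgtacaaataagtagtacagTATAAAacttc
TGFBI (chr5:136028738-136028987, plus strand): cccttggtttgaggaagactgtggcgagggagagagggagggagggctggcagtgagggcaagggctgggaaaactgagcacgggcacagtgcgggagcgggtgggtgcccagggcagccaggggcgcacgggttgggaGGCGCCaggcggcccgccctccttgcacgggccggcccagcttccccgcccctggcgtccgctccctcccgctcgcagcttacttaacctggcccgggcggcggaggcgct
SMAD7 (chr18:48950966-48951215, minus strand, the most upstream of 3 starts): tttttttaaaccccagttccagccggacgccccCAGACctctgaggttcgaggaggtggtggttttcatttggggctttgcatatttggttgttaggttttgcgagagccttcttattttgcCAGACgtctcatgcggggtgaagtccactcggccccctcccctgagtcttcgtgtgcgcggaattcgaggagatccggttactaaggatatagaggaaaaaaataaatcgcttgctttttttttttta

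The ID1 window held overlapping TATA box matches on its 2 strands, from 33 to 26 bases before the start, and INHBA had a TATA box match from 11 to 6 bases before it. TGFB2 and a second SMAD7 start also had a TATA box match, which 10.8% of 34943 promoters of this length hold. ID3 had a SMAD box from 147 to 143 bases before its start, and SMAD7 had 2, from 217 to 213 and from 128 to 124. The second SMAD7 start had a SMAD box from 193 to 189. Among the ligands, TGFB2 had SMAD boxes from 243 to 239 and from 53 to 49. BMP4 had them from 46 to 42 and from 181 to 177 bases before separate starts. A SMAD box occurs in 38.0% of all such windows. TGFBI held no SMAD box and had a GC-rich SMAD element from 111 to 106 bases before its start, a motif of 16.4% of windows. BMP4 had this element too, from 232 to 227 bases before a start. Neither the SMAD palindrome (0.183% of windows), the AP-1 site (6.59%), the cyclic AMP response element (1.63%) nor the MEF2 site (2.81%) was found in any of the 12 windows of the 8 genes. The INHBA window had 42.8% G and C, the ID1 window 66% and the TGFBI window 72.8%, beside a median of 58% over all windows.

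Per kilobase of the longest annotated transcript, TGFB1 had the highest mean level of the 9 genes in the 3 variant groups, 32.6 to 46.7 CPM per kb, and BMP4 the lowest in every group, 0.0452 to 0.692, although in KDAC7 H709A it was level with BMP2 at 0.694. In TMP195 the order at the top changed: ID1 stood at 62.8 ± 7.70 CPM per kb (SD, n = 3), ID3 at 42.1 ± 5.25 and TGFB1 at 40.5 ± 3.66, the last 2 within their spread of each other. In KDAC4 H976Y, TGFB1 at 32.6 ± 3.31 CPM per kb (SD, n = 4) and ID3 at 28.8 ± 4.43 were also within their spread, followed by ID1 at 21.6 ± 2.51 and INHBA at 15.7 ± 1.34. The order depended on the length used, because RSEM's deposited effective length was 2369 bases for INHBA and 1226 for TGFBI while the longest transcripts have 6064 and 4661. On effective lengths, TGFBI at 45.6 ± 8.10 CPM per kb and INHBA at 40.1 ± 3.44 reached the level of TGFB1, 45.7 ± 4.65, in KDAC4 H976Y.

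**Figure D1:**
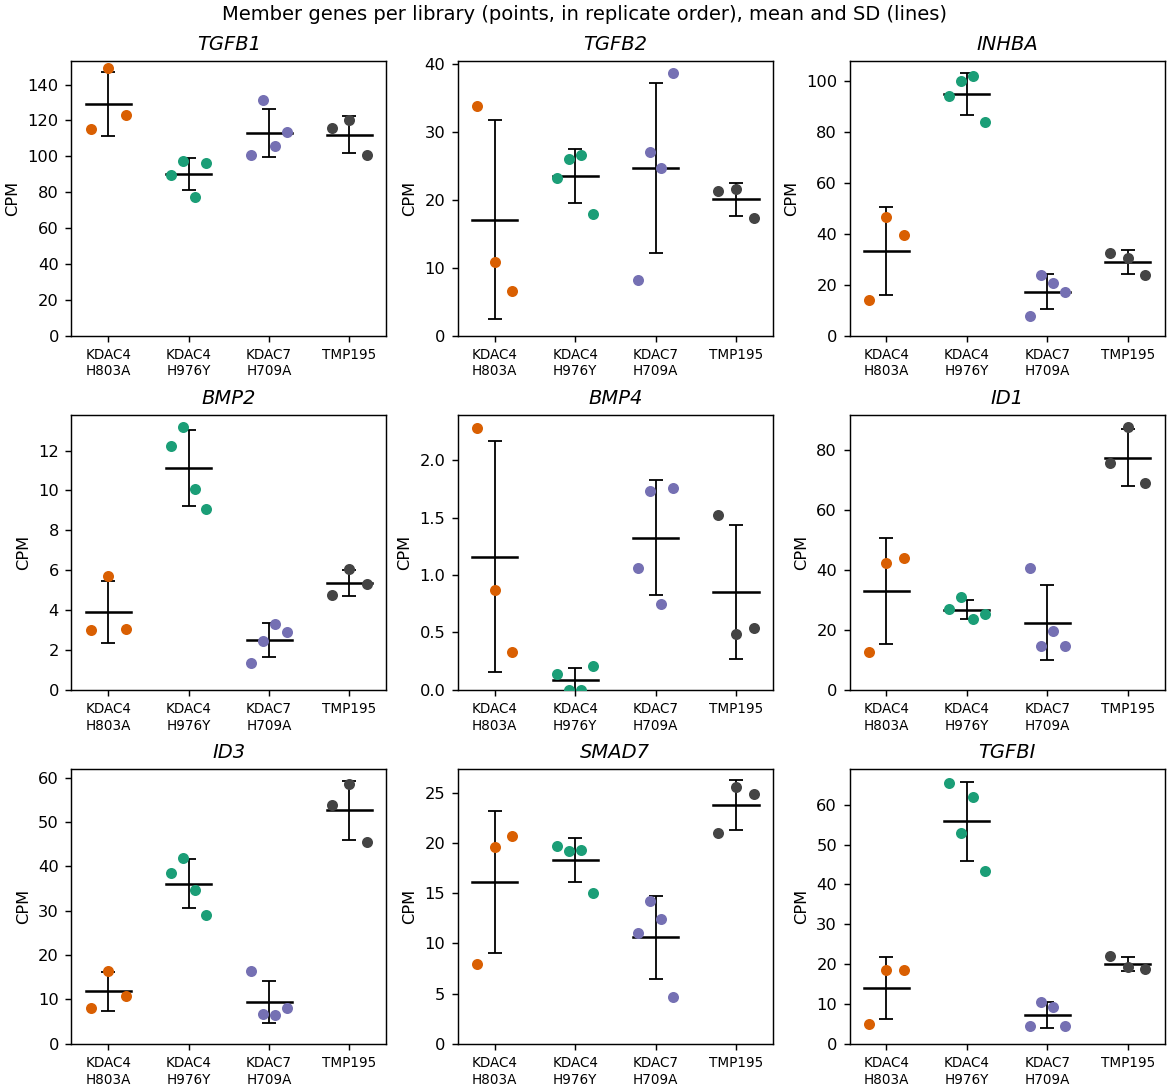
CPM of each of the 9 genes (y axis, from 0, a separate scale per gene) in the 14 libraries, by group (x axis). Points are libraries in replicate order, horizontal lines are means and bars are SD. INHBA, BMP2 and TGFBI stand highest in the 4 KDAC4 H976Y libraries, and ID1 and ID3 in the 3 TMP195 libraries.

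INHBA (ENSG00000122641, chr7:41667168-41705834, minus strand; gene positions here and below are GRCh38 from GENCODE v29) encodes the subunit that forms activin A. It stood at 94.0, 100.1, 101.9 and 83.8 CPM in KDAC4 H976Y, at 13.9, 46.5 and 39.4 in KDAC4 H803A, at 7.72, 23.7, 20.8 and 17.1 in KDAC7 H709A and at 32.6, 30.4 and 23.8 in TMP195. Every KDAC4 H976Y library was above every other library. Against KDAC4 H976Y, INHBA was lower by a log2 fold change of -1.52 ± 0.40 (SE) in KDAC4 H803A (adjusted p = 0.0240), of -2.45 ± 0.37 in KDAC7 H709A (adjusted p = 0.00118) and of -1.71 ± 0.40 in TMP195 (adjusted p = 0.0126). The KDAC7 H709A call held under all 24 alternatives (adjusted p at most 0.00523). INHBA is poor in G and C (39.1%, percentile 12.4 of tested genes), and with GC and length trends removed the differences were -0.94 in KDAC4 H803A (adjusted p = 0.142) and -1.21 in TMP195 (adjusted p = 0.0698). The KDAC4 H803A call also ended without KDAC4 H803A replicate 3 or KDAC4 H976Y replicate 1, 2 or 3 (adjusted p = 0.0526 to 0.0605), and the TMP195 call without TMP195 replicate 2 or 3 (0.0504 and 0.0659).

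BMP2 (ENSG00000125845, chr20:6767664-6780280, plus strand), a ligand of the BMP branch, had 12.2, 13.2, 10.1 and 9.06 CPM in KDAC4 H976Y. It had 2.98, 5.72 and 3.07 CPM in KDAC4 H803A, 1.35, 2.43, 3.32 and 2.89 in KDAC7 H709A and 4.76, 6.04 and 5.28 in TMP195. As for INHBA, the KDAC4 H976Y libraries lay above all others, and within the remaining groups TMP195 lay above KDAC7 H709A without overlap. Relative to KDAC4 H976Y, BMP2 was 2.85-fold lower in KDAC4 H803A (log2 fold change -1.51 ± 0.34, adjusted p = 0.0120), 4.42-fold lower in KDAC7 H709A (-2.14 ± 0.32, adjusted p = 0.000966) and 2.08-fold lower in TMP195 (-1.06 ± 0.33, adjusted p = 0.0459). The first call ended only without KDAC4 H803A replicate 3 (adjusted p = 0.0624, range over the alternatives 8.63e-05 to 0.0624), and the second held under all 24. The TMP195 call held under 12 of 24 alternatives (adjusted p = 0.000595 to 0.156): it ended without KDAC4 H976Y replicate 1, 2 or 3, KDAC7 H709A replicate 2 or 4, or any 1 of the TMP195 libraries, with upper-quartile scaling (0.0594), with no filter (0.123) and with the replicate number as a block, alone (0.0848) or with GC and length trends removed (0.0514).

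BMP4 (ENSG00000125378, chr14:53949736-53958761, minus strand), the closest relative of BMP2 among the genes here, was scarce and ran the other way. It had 1, 0, 0 and 1 counts in the KDAC4 H976Y libraries, 36, 9 and 3 in KDAC4 H803A, 11, 20, 12 and 42 in KDAC7 H709A and 24, 8 and 8 in TMP195, the highest level being 2.28 CPM. No KDAC4 H976Y library reached the lowest of the others. Relative to the 2 counts of KDAC4 H976Y, BMP4 was 20.8-fold higher in KDAC4 H803A (95% counting interval 5.46 to 177, adjusted p = 0.0193), 21.1-fold higher in KDAC7 H709A (5.66 to 177, adjusted p = 0.0132) and 13-fold higher in TMP195 (3.37 to 111, adjusted p = 0.0315). These intervals cover counting error only. BMP4 passed the filter on low counts only through the 3 groups where it is high, so its adjusted p-values are no support. The same holds for its calls in the counts below. Of the 48 counts in KDAC4 H803A, 36 came from the library labelled replicate 1, without which the ratio was 9.44 (2.10 to 86.9), and the KDAC7 H709A ratio without its replicate 1 was 22 (5.89 to 185). Without KDAC4 H976Y replicate 2 or 3 the calls ended (adjusted p = 0.0666 and 0.0668 in KDAC4 H803A, 0.0524 and 0.0517 in KDAC7 H709A, 0.0983 and 0.0997 in TMP195), and the TMP195 call also ended without KDAC4 H976Y replicate 1 (0.0607) or any 1 of the TMP195 libraries (0.0532 to 0.137).

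TGFB1 (ENSG00000105329, chr19:41301587-41353911, minus strand) and TGFB2 (ENSG00000092969, chr1:218346235-218444619, plus strand), the TGF-beta ligands proper, were called in 1 comparison and in none. TGFB1 had 115, 149.5 and 123 CPM in KDAC4 H803A, 89.5, 97.4, 77.4 and 96.2 in KDAC4 H976Y, 101, 131.5, 106 and 113 in KDAC7 H709A and 116, 120.04 and 101 in TMP195. Its KDAC4 H976Y libraries were the lowest, with no overlap with any other group. It was called in KDAC4 H803A against KDAC4 H976Y, 1.44-fold higher (log2 fold change 0.52 ± 0.16, adjusted p = 0.0461). That call held under 7 of 24 alternatives (adjusted p = 0.00237 to 0.833). TGFB1 is rich in G and C (63.5%, percentile 94.3), and with GC and length trends removed the log2 fold change was 0.13 (adjusted p = 0.833). The call also ended without any 1 of 12 libraries (adjusted p = 0.0524 to 0.191), all but KDAC4 H803A replicate 1 and KDAC7 H709A replicate 1.

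TGFB2 had 33.8, 10.9 and 6.58 CPM in KDAC4 H803A, 23.2, 26.1, 26.6 and 17.9 in KDAC4 H976Y, 8.20, 27.1, 24.7 and 38.7 in KDAC7 H709A and 21.3, 21.7 and 17.3 in TMP195. The groups overlapped, and TGFB2 was called in none of the 6 comparisons (adjusted p = 0.547 to 0.948). Its lowest libraries, KDAC4 H803A replicates 2 and 3 and KDAC7 H709A replicate 1, are the 3 with the largest excess of GC-rich genes, and TGFB2 has 38.9% G and C. Without the 2 doubted libraries TGFB2 was called in KDAC4 H803A, at -1.47 on the log2 scale against KDAC4 H976Y (adjusted p = 0.000273), and KDAC7 H709A was above KDAC4 H803A by 1.85 (adjusted p = 5.3e-05). In those comparisons 60.6% and 61.6% of all genes were called, and the group cannot be told apart from the GC difference.

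SMAD7 (ENSG00000101665, chr18:48919853-48952052, minus strand), the inhibitory SMAD that binds the activated receptor, had 7.98, 19.6 and 20.7 CPM in KDAC4 H803A, 19.7, 19.1, 19.3 and 15 in KDAC4 H976Y, 11, 14.2, 12.4 and 4.70 in KDAC7 H709A and 21.0, 25.5 and 24.9 in TMP195. All TMP195 libraries were above all libraries of the other groups, and all KDAC7 H709A libraries were below those of KDAC4 H976Y. No comparison of SMAD7 passed the threshold (adjusted p = 0.0705 to 0.725). The nearest was TMP195 against KDAC7 H709A, at 1.17 ± 0.36 on the log2 scale (adjusted p = 0.0705, 2.25-fold). With GC and length trends removed, KDAC7 H709A was called lower than KDAC4 H976Y for SMAD7 (-0.96, adjusted p = 0.0296).

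ID1 (ENSG00000125968, chr20:31605283-31606515, plus strand) and ID3 (ENSG00000117318, chr1:23557918-23559794, minus strand) encode helix-loop-helix proteins that lack a DNA-binding region and hold other such factors off DNA. Both are immediate targets of BMP signalling. ID1 had 75.7, 87.7 and 69.0 CPM in TMP195, against 12.7, 42.2 and 44.1 in KDAC4 H803A, 27.0, 30.8, 23.7 and 25.1 in KDAC4 H976Y and 40.7, 14.5, 19.5 and 14.5 in KDAC7 H709A. The TMP195 libraries were the highest without overlap, while the 3 variant groups overlapped. ID1 in TMP195 was 2.90-fold above KDAC4 H976Y (log2 fold change 1.54 ± 0.41, adjusted p = 0.0227) and 3.48-fold above KDAC7 H709A (1.80 ± 0.41, adjusted p = 0.0205). Against KDAC4 H803A the difference was 1.23 ± 0.45 and did not pass (adjusted p = 0.145). It passed with GC and length trends removed (1.48, adjusted p = 0.00216) and without the 2 doubted libraries (0.86, adjusted p = 0.00159). The first call ended without KDAC4 H976Y replicate 1 or 3 or any 1 of the TMP195 libraries (adjusted p = 0.0560 to 0.0803), while the second did so without any 1 of the TMP195 libraries or of KDAC7 H709A replicates 2, 3 and 4 (0.0552 to 0.0878). With the replicate number as a block they were 0.0974 and 0.109.

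ID3 had 53.9, 58.5 and 45.5 CPM in TMP195, 38.4, 42.0, 34.8 and 29 in KDAC4 H976Y, 8.04, 16.5 and 10.9 in KDAC4 H803A and 16.3, 6.68, 6.51 and 8.18 in KDAC7 H709A. Both inactive variants lay below both other groups without overlap, whereas ID1 overlapped between all 3 variants. ID3 was lower than in KDAC4 H976Y by a log2 fold change of -1.62 ± 0.34 in KDAC4 H803A (adjusted p = 0.00829) and of -1.94 ± 0.31 in KDAC7 H709A (adjusted p = 0.00154). It was 4.47-fold higher in TMP195 than in KDAC4 H803A (log2 fold change 2.16 ± 0.36, adjusted p = 0.00285) and 5.61-fold higher than in KDAC7 H709A (2.49 ± 0.33, adjusted p = 0.000431). These 4 calls held under all 24 alternatives (highest adjusted p = 0.0352, 0.00774, 0.0258 and 0.00887). TMP195 against KDAC4 H976Y gave 0.54 ± 0.32 (adjusted p = 0.248), although the libraries did not overlap, and passed without the 2 doubted libraries (0.52, adjusted p = 0.0195).

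TGFBI (ENSG00000120708, chr5:136028895-136063818, plus strand) encodes a secreted matrix protein named for its induction by TGF-beta. It had 65.5, 53.0, 61.9 and 43.3 CPM in KDAC4 H976Y, 5.07, 18.6 and 18.5 in KDAC4 H803A, 4.44, 10.6, 9.33 and 4.57 in KDAC7 H709A and 21.9, 19.2 and 18.7 in TMP195. The KDAC4 H976Y libraries were again above all others, and those of TMP195 were above those of both inactive variants. Over KDAC4 H803A the margin was small, 18.7 CPM in the lowest TMP195 library beside 18.6 in KDAC4 H803A replicate 2. That comparison was not called (0.51 ± 0.44, adjusted p = 0.588). Compared with KDAC4 H976Y, TGFBI was 3.99-fold lower in KDAC4 H803A (log2 fold change -2.00 ± 0.43, adjusted p = 0.00967), 7.74-fold lower in KDAC7 H709A (-2.95 ± 0.40, adjusted p = 0.000601) and 2.81-fold lower in TMP195 (-1.49 ± 0.42, adjusted p = 0.0295). The first 2 calls held under all 24 alternatives. The TMP195 call ended without KDAC4 H976Y replicate 1, 2 or 3 or any 1 of the TMP195 libraries (adjusted p = 0.0542 to 0.108). TMP195 against KDAC7 H709A was just outside the threshold, at 1.46 ± 0.41 (adjusted p = 0.0501).

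**Figure D2:**
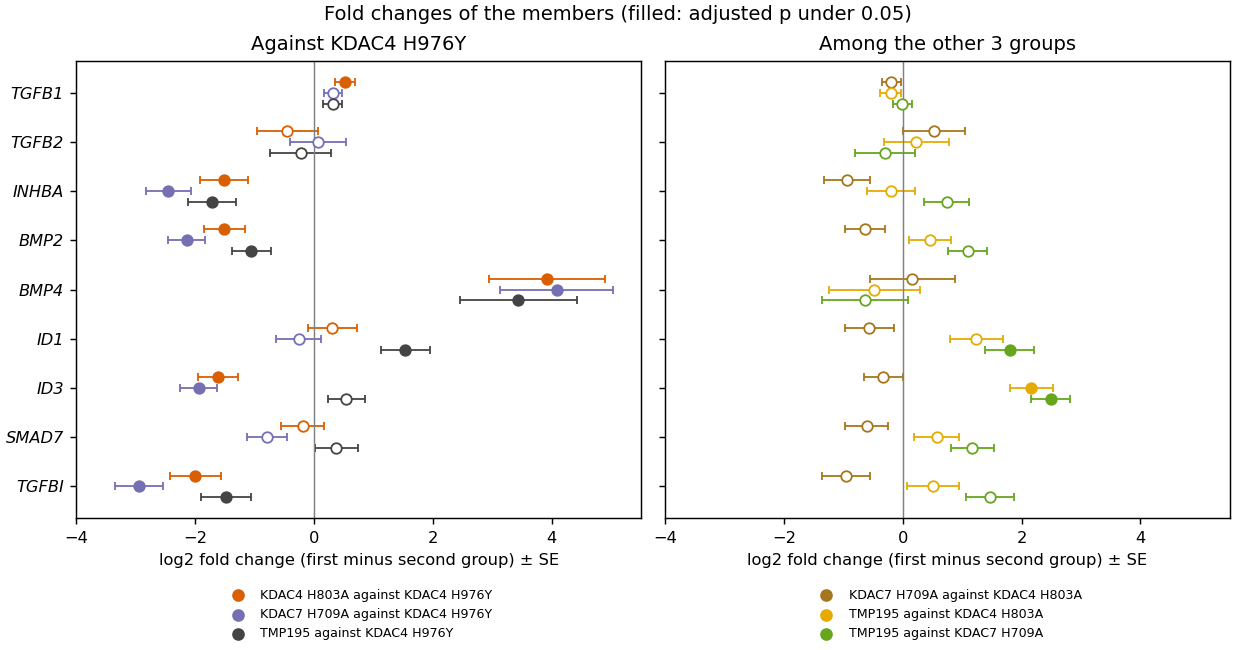
Log2 fold change (x axis, first group minus second, bars are SE) of the 9 genes (rows) from edgeR, with filled points where the adjusted p was under 0.05. Left, the 3 other groups against KDAC4 H976Y, where INHBA, BMP2 and TGFBI lie left of 0 and BMP4 right of it in each; BMP4's fitted values rest on 2 counts in KDAC4 H976Y. Right, the other 3 comparisons, where the filled points are ID1 and ID3 in TMP195.

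The groups bear on how the presumed active or inactive state of a class IIa enzyme, set by mutation or by drug, goes with expression. KDAC7 H709A against KDAC4 H976Y differs in the enzyme as well as in that state, and these cannot be told apart. KDAC7 H709A against KDAC4 H803A sets presumed inactive forms of different enzymes side by side. Between the enhanced and the inactive KDAC4, KDAC4 H803A against KDAC4 H976Y, 2 of the 9 genes were called higher (TGFB1, BMP4) and 4 lower (INHBA, BMP2, ID3, TGFBI), where 9.21% of all 17780 genes were called higher and 5.85% lower. The median log2 fold change of the 9 genes was -0.45, beside 0.09 for all genes tested. Of all genes called 61.1% were higher, and 50.3% with GC and length trends removed. Leaving out KDAC4 H803A replicate 3, KDAC4 H976Y replicate 2 or KDAC4 H976Y replicate 3 gave a count of 3 in each case, beside 6.15%, 7.03% and 7.14% of all genes where the full set gave 15.1%. Without the 2 doubted libraries it was 8, when 60.6% of all genes were called.

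KDAC7 H709A against KDAC4 H976Y called 1 of the 9 genes higher (BMP4, background 7.28%) and 4 lower (INHBA, BMP2, ID3, TGFBI, background 5.19%), with a median log2 fold change of -0.80 beside 0.09. Without the doubted libraries 8 were called, 2 higher and 6 lower, beside 33.9% of all genes. The 2 inactive variants were called in the same direction against KDAC4 H976Y for BMP4, INHBA, BMP2, ID3 and TGFBI, but both comparisons use the same KDAC4 H976Y libraries. BMP4 also passed the filter on low counts only through the groups where it is high.

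KDAC7 H709A against KDAC4 H803A called none of the 9 genes with edgeR, and 0% of all genes higher and 0% lower. At an unadjusted p under 0.05 it had 2 of the 9 genes, INHBA and TGFBI, and 1118 of all genes (6.29%), and DESeq2 called 0 of the 9 genes and 92 in all. The 9 genes' median log2 fold change was -0.57. These groups hold the 2 libraries that resemble the other group. Leaving out the library labelled KDAC4 H803A replicate 1 alone gave 3, beside 25.7% of all genes, and leaving out both gave 6 of 9, beside 61.6% of all genes. TGFB2 was then higher in KDAC7 H709A, and INHBA, ID1, ID3, SMAD7 and TGFBI were lower. The count of 6 of 9 is near the background of that fit. Its KDAC4 H803A libraries had GC differences of 1.33 and 1.22 and its KDAC7 H709A libraries -0.45 to -1.08. The group and the GC difference therefore cannot be told apart there.

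In TMP195 against KDAC4 H976Y, ID1 and BMP4 were called higher (background 7.96%) and INHBA, BMP2 and TGFBI lower (8.55%). The count of 5 was 1, 2 and 1 without KDAC4 H976Y replicates 1, 2 and 3, and 1, 0 and 0 without TMP195 replicates 1, 2 and 3. The share of all genes called fell in these fits from 16.5% to 9.61% to 9.73% and to 7.08% to 7.49%, so that the 9 genes were at or near the background. The count was 3 with the replicate number as a block, beside 8.75% of all genes.

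TMP195 against KDAC4 H803A called ID3 higher and none lower, where 1.56% of all genes were higher and 3.78% lower. Leaving out any 1 library left the count at 1; without the 2 doubted libraries it was 4, beside 41.6% of all genes. TMP195 against KDAC7 H709A called ID1 and ID3 higher and none lower, where 1.99% of all genes were higher and 4.31% lower, with a median log2 fold change of 1.09 over the 9 genes beside -0.07 over all. That count rose to 5 when the library labelled KDAC4 H803A replicate 1 was left out and to 7 when both doubted libraries were, where the share of all genes called rose from 6.29% to 14.6% and 47.6%. It was 1 without KDAC7 H709A replicate 2, 3 or 4 (4.10% to 4.47% of all genes) or any 1 of the TMP195 libraries (2.27% to 2.44%). DESeq2 called 5 of the 9 genes and 11.1% of all, upper-quartile scaling 4 and 7.22%, and the replicate block 1 and 2.55%. Of all genes called, 29.2% were higher in TMP195 against KDAC4 H803A and 31.5% against KDAC7 H709A, and with upper-quartile scaling these shares were 40.8% and 44.8%.

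Taking a gene as set apart where all 3 comparisons of a group passed in 1 direction, KDAC4 H976Y had 3 of the 9 genes higher (INHBA, BMP2, TGFBI; background 1.63%) and 1 lower (BMP4; background 3.43%). BMP4 is no support here, since it passed the filter on low counts only through the other groups. TMP195 had none, where 0.337% of genes were higher and 2.32% lower in all 3. The 4 genes that set KDAC4 H976Y apart were 0 without KDAC4 H976Y replicate 1, 2 or 3 or TMP195 replicate 2 or 3, 1 (INHBA) without TMP195 replicate 1 and 2 (BMP4, TGFBI) without KDAC4 H803A replicate 3. Fewer cells of a kind and less RNA per cell cannot be told apart in these bulk libraries.

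**Figure D3:**
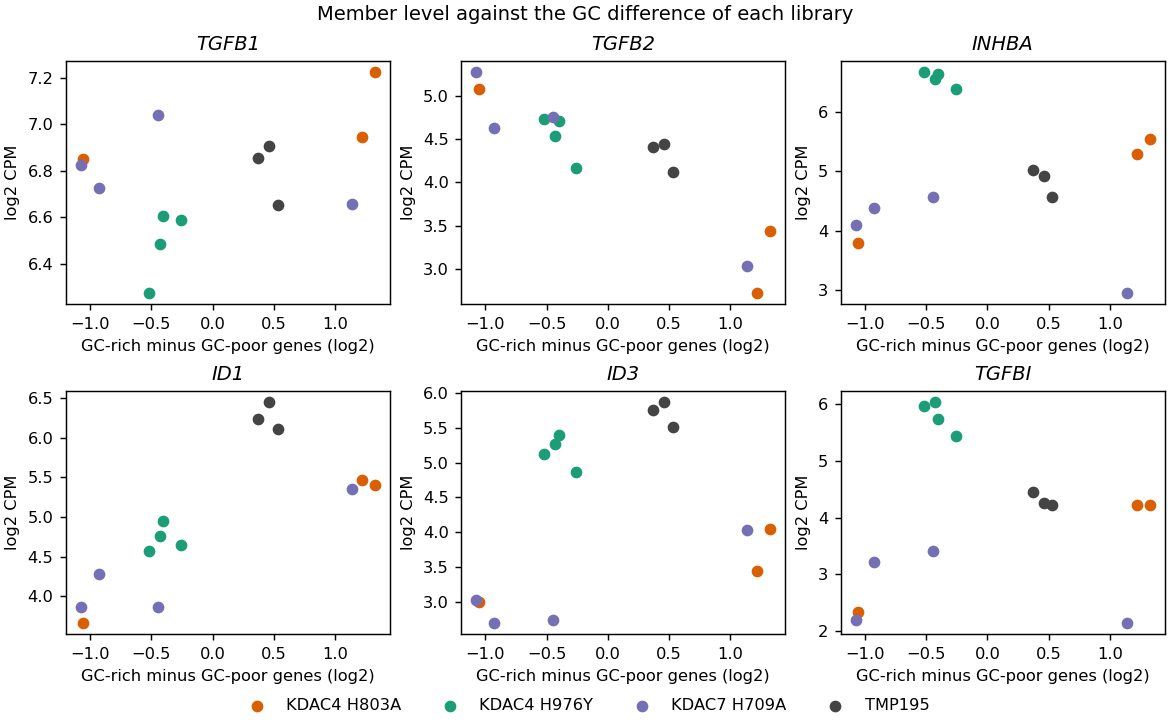
Level of 6 of the genes (y axis, log2 CPM) against the difference between GC-rich and GC-poor genes of the same library (x axis, log2), 1 point per library, coloured by group. TGFB2 is lower and ID1 tends to be higher where GC-rich genes are in excess among the variant libraries, while INHBA, ID3 and TGFBI in KDAC4 H976Y lie above KDAC7 H709A replicate 2, which has a similar x value of -0.45.

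Removing a smooth trend on GC content and length within each library left BMP2, BMP4, ID1 and TGFBI called in TMP195 against KDAC4 H976Y, where every TMP195 library had the larger excess of GC-rich genes, and ended the call of INHBA there. The trend itself spanned -0.78 to 0.97 (log2) over the 14 libraries for TGFB1, -0.60 to 0.53 for TGFB2 and -0.58 to 0.52 for INHBA. It spanned -0.16 to 0.21 for TGFBI and -0.20 to 0.29 for BMP2.

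Among the 14 libraries, INHBA, BMP2 and TGFBI went together, with Pearson r of 0.93 for INHBA with BMP2, 0.96 for INHBA with TGFBI and 0.93 for BMP2 with TGFBI on the log2 scale. BMP4 ran against them, at -0.84 with TGFBI. ID1 had r of 0.72 with ID3 and 0.74 with SMAD7 but 0.07 with INHBA. These values describe 14 libraries of 4 groups that share depth and GC differences, and carry no test. Of 15706 genes with a mean of at least 1 CPM, those most like INHBA were TGFBI (0.96), P4HA3 (0.95) and NDUFA1 (0.95), those most like TGFBI were IFI27 (0.98), MRPL52 (0.97) and INHBA, and those most like BMP2 were MRPL52 (0.97), RPS21 (0.96) and JAG1 (0.95). For ID1 they were SLC3A2 (0.96), SMAD6 (0.96) and CLTCL1 (0.95), for ID3 APCDD1L (0.97), C10orf54 (0.96) and LOXL2 (0.95), and for SMAD7 SMYD5 (0.94), ORAI2 (0.94) and DDIT4 (0.94). For TGFB1 they were IGF2BP1 (0.91), GATAD2A (0.90) and MEF2D (0.89), for TGFB2 CDH2 (0.99), ARCN1 (0.98) and ADIPOR1 (0.98), and for BMP4 MYADM (0.92), EPB41L2 (0.91) and SP2 (0.91).

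**Figure D4:**
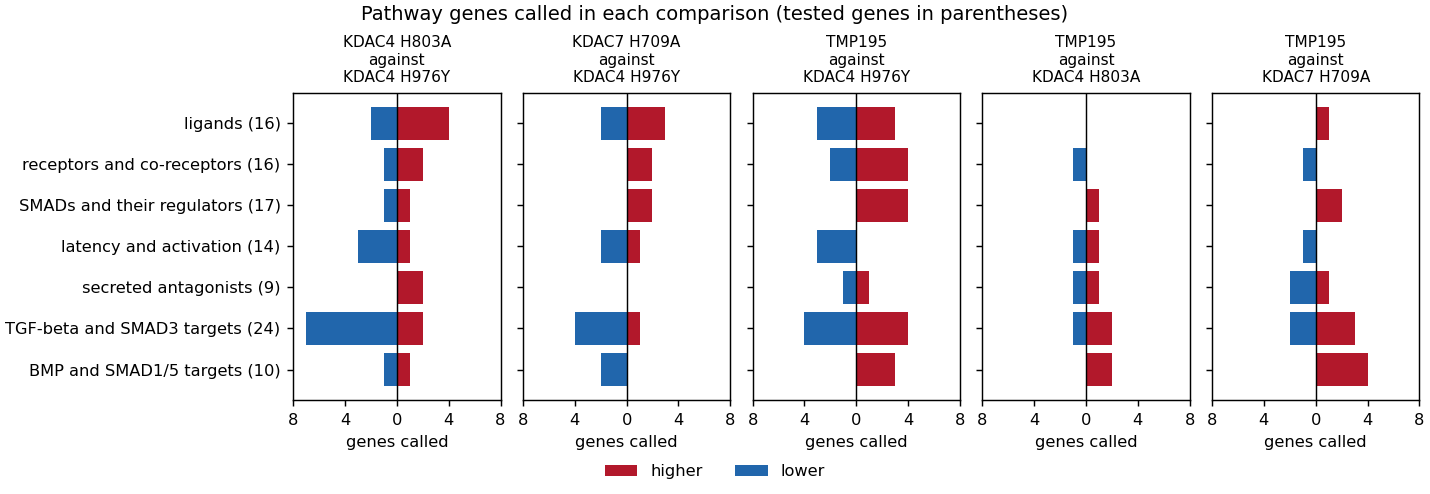
Number of genes of each pathway list called higher (right, red) or lower (left, blue) in 5 comparisons (panels), with the number tested in parentheses. KDAC7 H709A against KDAC4 H803A had none called. TGF-beta and SMAD3 targets were called in both directions against KDAC4 H976Y. In TMP195 against KDAC7 H709A, 4 of 10 BMP targets were higher and none lower, where 1.99% of all genes were higher. These 4 include ATOH8, which passed the filter on low counts through TMP195.

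Other genes of the pathway were read from lists by role. Of 33 ligands 16 could be tested, among them the 5 described above. INHBB, the subunit of activin B, ran opposite to INHBA: it had 0.206 to 0.638 CPM in KDAC4 H976Y, 5.81 to 14.4 in KDAC4 H803A and 7.75 to 9.78 in TMP195. In KDAC7 H709A it was split, with 15.7 and 16.8 CPM in replicates 1 and 4 and 0.434 and 0.814 in replicates 2 and 3. INHBB was higher than in KDAC4 H976Y by 4.48 on the log2 scale in KDAC4 H803A (adjusted p = 0.0163), 4.30 in KDAC7 H709A (adjusted p = 0.0173) and 4.34 in TMP195 (adjusted p = 0.0161). It had 13 counts in all in KDAC4 H976Y and passed the filter on low counts only through the other groups, so these p-values are no support. These calls ended without KDAC4 H976Y replicate 3 (adjusted p = 0.0590, 0.0645 and 0.0570), and the one in KDAC7 H709A also without KDAC4 H976Y replicate 1 (0.0508), with the replicate block alone (0.0722) or with GC and length trends removed (0.0517), and without KDAC7 H709A replicates 1 and 4 and the library labelled KDAC4 H803A replicate 1 (0.60, adjusted p = 0.404). GDF7, a BMP-type ligand, was also higher than in KDAC4 H976Y in the 3 other groups, by 2.4 ± 0.39, 1.75 ± 0.37 and 2.44 ± 0.39 (adjusted p = 0.00203, 0.00809 and 0.00131), under all 24 alternatives.

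Of 16 receptors and co-receptors, 2 were higher and 1 lower in KDAC4 H803A, 2 and 0 in KDAC7 H709A and 4 and 2 in TMP195, each against KDAC4 H976Y. The shares of all genes were 9.21% and 5.85%, 7.28% and 5.19%, and 7.96% and 8.55%, so that several of these counts are near the background. ACVR2B, a type II receptor for activin, was higher in all 3, by 1.26 ± 0.18, 1.22 ± 0.17 and 0.92 ± 0.18 (adjusted p = 0.000897, 0.000616 and 0.00405). RGMA, a BMP co-receptor, had 0.825, 0.244 and 0.468 CPM in TMP195 and 5.95 to 17.9 in the variants, and was lower in TMP195 by -4.42 ± 0.52, -4.28 ± 0.51 and -4.09 ± 0.50 (adjusted p = 0.000187, 0.000157 and 0.000273 against KDAC4 H803A, KDAC4 H976Y and KDAC7 H709A). The ACVR2B and RGMA calls held under all 24 alternatives. RGMA had 24 counts in all in TMP195 and passed the filter on low counts through the variants, where it is high, so its p-values are no support. Of 17 SMADs and their regulators, SMAD3, SMAD6, SMAD9 and the corepressor TGIF2 were higher and none was lower in TMP195 against KDAC4 H976Y. The shares of all genes there were 7.96% and 8.55%. SMAD9, a signal carrier of the BMP branch, had 10.7, 12.8 and 11.2 CPM in TMP195 and 4.93, 3.72, 3.46 and 3.71 in KDAC4 H976Y (1.55 ± 0.35, adjusted p = 0.0101), a call that held under all 24 alternatives. The other 3 did not: without KDAC4 H976Y replicate 1, 2 or 3 or any 1 of the TMP195 libraries the calls of SMAD3 (adjusted p = 0.0526 to 0.0679), SMAD6 (0.0715 to 0.0926) and TGIF2 (0.0584 to 0.113) ended, and that of TGIF2 also without KDAC4 H976Y replicate 4 (0.0632). TGIF2 was also higher than in KDAC4 H976Y in KDAC4 H803A (0.99 ± 0.19, adjusted p = 0.00496) and KDAC7 H709A (0.79 ± 0.18, adjusted p = 0.0113), under all 24 alternatives. SMAD3 was also higher in TMP195 than in KDAC4 H803A (1.20 ± 0.24, adjusted p = 0.00907) and KDAC7 H709A (0.87 ± 0.22, adjusted p = 0.0312). Leaving out 1 library ended the first of these in 1 fit and the second in 9.

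Secreted TGF-beta is held latent by LTBP proteins and freed by integrins such as the one that contains ITGB8. Of 14 genes of latency and activation, 3 were lower and 1 higher in KDAC4 H803A against KDAC4 H976Y. Of all genes 5.85% were lower and 9.21% higher, so the 1 higher is near the background. LTBP1 had 461, 478, 508 and 314 CPM in KDAC4 H976Y, 82.1, 32.8 and 24.1 in KDAC4 H803A, 34.3, 158.6, 151 and 72.9 in KDAC7 H709A and 141, 142 and 120.03 in TMP195, so KDAC4 H976Y was above all others, as for TGFBI. It was lower by -3.24 ± 0.54 in KDAC4 H803A (adjusted p = 0.00232) and -2.08 ± 0.46 in KDAC7 H709A (adjusted p = 0.0102), under all 24 alternatives. In TMP195 LTBP1 was lower by -1.71 ± 0.50 (adjusted p = 0.0345), a call that ended without KDAC4 H976Y replicate 1, 2 or 3 or any 1 of the TMP195 libraries (0.0744 to 0.130) and with the replicate block (0.0713). ITGB8 had 1.14, 0.916 and 0.802 CPM in TMP195 and 6.40 to 23 in the variants. Of 9 secreted antagonists 1 was higher (BMPER) and 2 lower (NOG, FST) in TMP195 against KDAC7 H709A, where 1.99% of all genes were higher and 4.31% lower. NOG, which blocks BMP ligands, was lower by -1.39 ± 0.25 (adjusted p = 0.00495, at most 0.0413 over the alternatives). The BMPER call also held under all 24 alternatives (adjusted p at most 0.0228). That of FST ended in 4 of the fits that left out 1 library (0.0609 to 0.119).

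**Figure D5:**
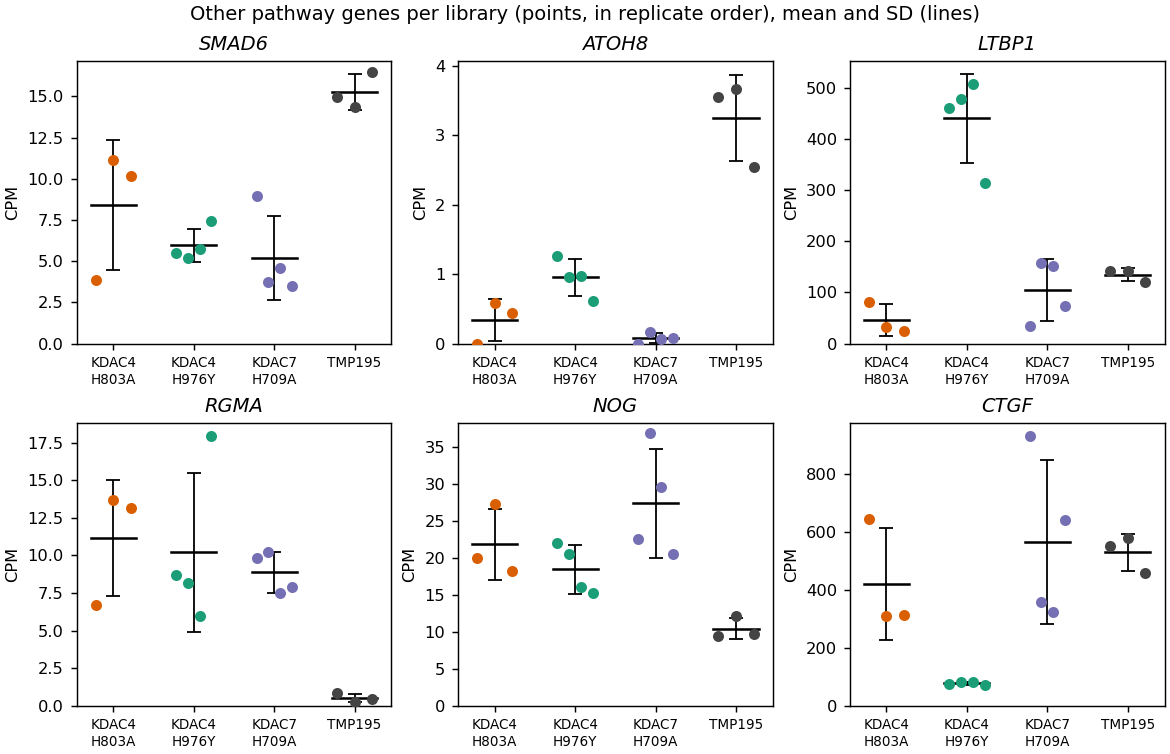
CPM of 6 further pathway genes (y axis, from 0, a separate scale per gene) in the 14 libraries by group (x axis), points in replicate order with mean and SD. SMAD6 and ATOH8 are highest in TMP195 and RGMA and NOG lowest there, LTBP1 is highest in the 4 KDAC4 H976Y libraries, and CTGF is lowest in those 4, at 71.9 to 82.3 CPM.

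Of 24 TGF-beta and SMAD3 targets, which include TGFBI and SMAD7, 2 were higher and 7 lower in KDAC4 H803A against KDAC4 H976Y, 1 and 4 in KDAC7 H709A, and 4 and 4 in TMP195. The shares of all genes were 9.21% and 5.85%, 7.28% and 5.19%, and 7.96% and 8.55%. The counts called higher in the 2 inactive variants are thus near the background. COL1A2, a collagen I chain, had 87 counts in KDAC4 H976Y and 77 in TMP195, but 1 in KDAC4 H803A and 0 in KDAC7 H709A. With 3 counts over the group as the floor, COL1A2 was at least 58.5-fold lower in KDAC7 H709A than in KDAC4 H976Y and at least 33.6-fold higher in TMP195 than in KDAC7 H709A. It passed the filter on low counts only through the groups where it is high, so no p-value is given in support. CTGF, of the same list, ran the other way. It had 71.9 to 82.3 CPM in KDAC4 H976Y, 308 to 643 in KDAC4 H803A, 324 to 931 in KDAC7 H709A and 456 to 579 in TMP195. CTGF was called higher than in KDAC4 H976Y in these 3 groups under all 24 alternatives (adjusted p at most 0.00638, 0.00226 and 0.00221).

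Of 10 BMP and SMAD1/5 targets, which include ID1, ID3 and SMAD7, none was lower in TMP195, and 2, 3 and 4 were higher against KDAC4 H803A, KDAC4 H976Y and KDAC7 H709A, where 1.56%, 7.96% and 1.99% of all genes were higher. In the first, ATOH8 was no longer called without KDAC4 H803A replicate 2 or 3, KDAC4 H976Y replicate 1, 2 or 3 or any 1 of the TMP195 libraries (adjusted p = 0.0504 to 0.120), and in the second the calls of ID1 and SMAD6 ended as given above. The list's median log2 fold changes were 0.57, 0.48 and 0.86, beside -0.11, 0.03 and -0.07 for all genes tested. Beside ID1 and ID3, the 4 higher than in KDAC7 H709A were SMAD6 and ATOH8. SMAD6, the inhibitory SMAD of the BMP branch and among the genes most like ID1, had 15, 14.3 and 16.4 CPM in TMP195 and 3.48 to 11.1 in the variants (1.56 ± 0.38 against KDAC7 H709A, adjusted p = 0.0277). That call ended when any 1 of the TMP195 libraries or of KDAC7 H709A replicates 2, 3 and 4 was left out (0.0703 to 0.103). ATOH8, a helix-loop-helix gene, had 3.56, 3.66 and 2.54 CPM in TMP195, 0.618 to 1.27 in KDAC4 H976Y, at most 0.581 in KDAC4 H803A and at most 0.174 in KDAC7 H709A. The fitted log2 difference of TMP195 over KDAC7 H709A was 5.17 ± 0.83, from 154 and 5 counts. ATOH8 too passed the filter on low counts through TMP195, so no p-value is given in support. Its calls in the counts of this list are no support either.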

How the data were processed

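RNA-seq counts of 14 HT1080 libraries in 4 groups were used. The deposited values are RSEM expected counts per gene, not normalised. Per the submitters' processing notes the build was GRCh38 and the tools include RSEM 1.3.3, Bowtie2 2.4.5, DESeq2 1.38.2 and Trimmomatic 0.39. The annotation release is not given in the sources used here, nor is the strand setting. The deposited column named for KDAC4 H803A replicate 4 holds lengths: in 7367 of 7612 genes it equals transcript length minus 248.86 bases within 0.02, and it entered no test.

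Expected counts were rounded, passed through filterByExpr at a minimum count of 10 and a minimum total of 15, scaled by TMM and fitted in 1 model of the 4 groups with edgeR 4.0.16's quasi-likelihood test (limma 3.58.1, R 4.3.3). P-values were adjusted by Benjamini-Hochberg over 17780 genes, and a call is an adjusted p under 0.05. SE is the absolute log2 fold change over the root of the F statistic. The fit was also run on simulated counts of independent libraries with less spread than these. The simulation held no GC differences within groups and no doubted libraries, so it cannot show how the fit handles them. Alternatives were 24: DESeq2 1.42.0, other scaling, no filter, only the groups compared, a replicate block, offsets for GC content and length (mgcv 1.9.3), 2 or 3 libraries left out, and each library left out. GENCODE v29 gave coordinates and lengths, and RefSeq GRCh38.p14 the promoters. All 9 genes were named; beyond them, up to 3 called genes of each list with the smallest adjusted p over the 6 comparisons, of which 1 is not reported here. The 9 genes and the lists were chosen with earlier results of these data known.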

Additional observations from a re-analysis of the deposited data

Results flagged for a closer look

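Among 18 groups of 4 libraries, 2 held a library far from the other 3, where chance gives about 1 group in 20. For ID3, the library labelled KDAC7 H709A replicate 1 had 16.3 CPM and the nearest of its group 8.18, a gap that took 0.830 of the group's range and just passed Dixon's limit at the 95% level. This is the library that resembled KDAC4 H803A, whose ID3 levels were 8.04 to 16.5 CPM. For SMAD7, KDAC4 H976Y replicate 4 had 15 CPM and the nearest of its group 19.1, a gap of 0.880 of the range. That library held 73 SMAD7 counts, the fewest of any library.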

How the results depend on the processing

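Of 19 calls of the 9 genes, 8 passed under all 24 alternatives (ID3 in 4 comparisons, TGFBI in 2, and INHBA and BMP2 in KDAC7 H709A against KDAC4 H976Y), and no call changed direction. Leaving out 1 library at a time gave 3 to 7 called genes in KDAC4 H803A against KDAC4 H976Y, 4 to 5 in KDAC7 H709A against KDAC4 H976Y, 0 to 3 in KDAC7 H709A against KDAC4 H803A, 1 in TMP195 against KDAC4 H803A, 0 to 5 in TMP195 against KDAC4 H976Y and 1 to 5 in TMP195 against KDAC7 H709A. Without the 2 doubted libraries, or without these and KDAC7 H709A replicate 4, the counts were 8 and 8 in KDAC7 H709A against KDAC4 H976Y, 6 and 6 in KDAC7 H709A against KDAC4 H803A, 4 and 4 in TMP195 against KDAC4 H803A, and 7 and 5 in TMP195 against KDAC7 H709A. TMP195 against KDAC7 H709A had 4 with upper-quartile scaling and 5 with DESeq2, and TMP195 against KDAC4 H803A had 2 with GC and length trends removed. The replicate block gave 3 in TMP195 against KDAC4 H976Y and 1 in TMP195 against KDAC7 H709A. The block with GC and length trends removed gave 3 in TMP195 against KDAC4 H976Y and 2 in TMP195 against KDAC4 H803A. In the other 4 comparisons the block alone called 5, 5, 0 and 1. Replicate numbers did not pair the libraries: over 19 same-numbered pairs r was -0.69 to 0.36, 5 were above 0.1, and 3 of 14 libraries were most like their own number. Over all genes the 6 counts of 2679, 2218, 0, 949, 2936 and 1119 became 4190, 3278, 92, 1871, 4466 and 2384 with DESeq2, 1230, 1322, 0, 563, 1556 and 453 with the block, and 11173, 6250, 11360, 7672, 8908 and 8787 without the doubted libraries. They were 11848, 5829, 11044, 8792, 9895 and 8392 without KDAC7 H709A replicate 4 as well, and 1634, 1935, 0, 366, 9576 and 833 with only the groups compared. Without a filter KDAC7 H709A against KDAC4 H803A had 14, and with the block and GC and length trends removed TMP195 against KDAC7 H709A had 598. The cause was not tested, except that leaving out libraries changes the number of samples. Upper-quartile scaling moved the median log2 fold change of all genes from 0.03 to 0.14 in TMP195 against KDAC4 H976Y and from -0.07 to 0.03 in TMP195 against KDAC7 H709A. Per-kilobase levels moved beyond 1 SD with the deposited effective length in 21 of 36 cases. Depth limits BMP4, whose level in KDAC4 H976Y rests on 2 counts.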
